A study of Mus musculus with 9 samples.

Results

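The BCL2 family decides at the mitochondrion whether a cell survives or dies, and 10 of its genes were followed here in spleen plasma cells: Bcl2, Bcl2l1, Mcl1, Bcl2l11, Bbc3, Pmaip1, Bax, Bak1, Bid and Bad. They were taken by symbol from a table of 46958 genes, in which each occurred once, and all 10 were among the 14199 genes with enough counts to be tested. RNA came from CD138-positive cells of spleens of non-immunized mice aged 3 months on a mixed background of C57/BL6, 129/SV and BALB/c, with 1 library per spleen and 3 libraries for each of 3 genotypes: WT, DH-LMP2A and kFRA. The kFRA genotype is marked LCDD in the labels, for light chain deposition disease, and the series concerns the toxicity of a free light chain of that disease to plasma cells. LMP2A is a protein of the Epstein-Barr virus that can replace the survival signal of the B cell receptor. The labels do not spell out the alleles or their promoters, nor which alleles other than the named ones kFRA mice carried, and they state a purity that left room for other spleen cells.

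BCL2, BCL-XL (from Bcl2l1) and MCL1 hold the mitochondrial outer membrane intact by binding and restraining their relatives. BIM (Bcl2l11), PUMA (Bbc3), NOXA (Pmaip1), BID and BAD carry only the BH3 helix and report stress to the guardians. BAX and BAK form the pore through which cytochrome c leaves to activate caspases. Plasma cells are known to depend above all on MCL1, which the receptor BCMA helps to sustain.

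The members whose transcripts differed most clearly between genotypes were Bid and Bcl2l11, and the DNA just upstream of their RefSeq starts is shown for them because these are the genes on which the comparisons below turn. The sequences are RefSeq's for GRCm38.p6, written 5′ to 3′ in the direction of transcription, with capitals for complete matches to the motifs searched. The Bid window is chr6:120916854-120917074 on the minus strand, 221 bases that lie outside annotated exons. The Bcl2l11 window is chr2:128125788-128126037 on the plus strand, 250 bases before the first of its 2 listed starts. The window before the other start, chr2:128127325-128127574, is not shown and held 2 CCAAT boxes and 2 GC boxes but no FOXO site.
Bid: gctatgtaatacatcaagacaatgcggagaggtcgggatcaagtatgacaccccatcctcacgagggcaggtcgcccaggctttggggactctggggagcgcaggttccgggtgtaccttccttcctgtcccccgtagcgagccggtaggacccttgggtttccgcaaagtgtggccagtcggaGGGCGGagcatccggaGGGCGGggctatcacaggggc
Bcl2l11: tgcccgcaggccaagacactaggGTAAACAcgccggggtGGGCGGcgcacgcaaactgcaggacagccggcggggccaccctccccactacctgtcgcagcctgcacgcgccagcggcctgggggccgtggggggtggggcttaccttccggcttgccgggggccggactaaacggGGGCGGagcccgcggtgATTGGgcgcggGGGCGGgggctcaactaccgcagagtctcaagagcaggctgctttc

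In these windows the capitals mark 2 GC boxes in Bid, and 3 GC boxes, 1 CCAAT box read on the opposite strand and 1 FOXO site in Bcl2l11. The motifs, searched on both strands with overlaps counted, were the CCAAT box (CCAAT), the GC box (GGGCGG), the TATA box (TATAAA), the E box (CACGTG), the CRE (TGACGTCA), the CHOP-ATF composite site (TGATGNAAT) and the FOXO site (GTAAACA). Of 32851 RefSeq windows of 250 bases upstream of a start, 32.7% held a GC box, 33.8% a CCAAT box and 3.17% the FOXO site. The other motifs were in 12.4% (TATA box), 6.02% (E box), 1.55% (CRE) and 0.816% (CHOP-ATF composite site) of them, and none of these letters occurred in the windows shown. Among the members not shown, a window of Bbc3 also held a FOXO site, and windows of Bcl2, Mcl1, Bbc3, Bax and Bad held GC boxes. These motifs are thus not particular to Bid and Bcl2l11. A match of letters is a description of the DNA and not a measured binding site.

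Mcl1 was by far the most abundant member in every library when read counts were divided by exon length (RPKM: reads per kilobase of exon at a common library total, after TMM scaling, edgeR's trimmed mean of log ratios). Mean levels of Mcl1 were 128 ± 24.5 RPKM for WT, 114 ± 11.1 RPKM for DH-LMP2A and 136 ± 16.5 RPKM for kFRA (SD, n = 3 each), and Mcl1 made up 52.0% to 63.3% of the summed RPKM of the 10 members. Bax came next at 41.6 ± 1.96 RPKM in WT, and Bak1 at 13.4 ± 1.03 RPKM (SD, n = 3 each), each above the following member in every WT library. The other 7 members lay between 3.61 RPKM (Bcl2) and 6.10 RPKM (Bid) on average in WT, and no neighbours in that order were separated in all WT libraries. In DH-LMP2A the order changed at its middle: Bid, at 12.3 ± 1.39 RPKM, stood above Bak1, at 10.4 ± 0.309 RPKM (SD, n = 3 each), without overlap. In kFRA Bid was at 13.9 ± 2.71 RPKM against 11.3 ± 0.85 RPKM for Bak1 (SD, n = 3 each), and the libraries overlapped. Bcl2, the lowest member in WT, took the fifth place in both, at 7.14 ± 1.74 RPKM in DH-LMP2A and 6.22 ± 3.08 RPKM in kFRA (SD, n = 3 each), with libraries that overlapped those of the next member. Bcl2l11 was the lowest member in both DH-LMP2A (3.20 ± 0.315 RPKM) and kFRA (2.59 ± 0.336 RPKM; SD, n = 3 each). In DH-LMP2A its libraries overlapped those of the next member, Bcl2l1, whereas in kFRA they lay below those of the next member, Pmaip1. These orders rest on the length of each gene's merged exons, for example 8029 bases for Bcl2l11 and 869 bases for Bax.

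**Figure D1:**
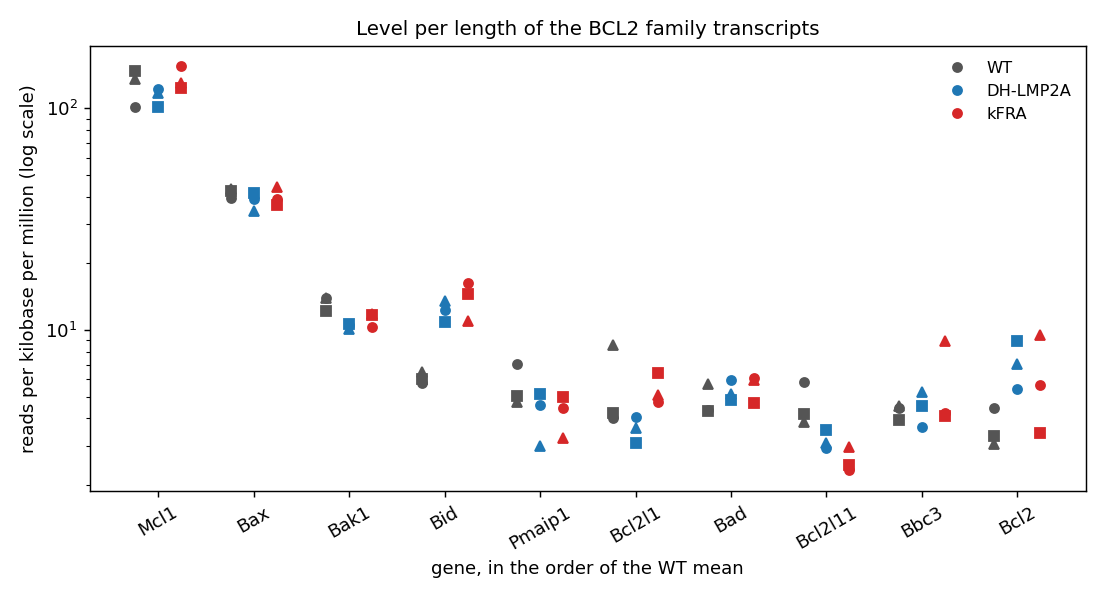
Level of each member per exon length (RPKM on a log scale) in every library, with genes in the order of their WT mean and colours for the genotypes (circles, squares and triangles are replicates 1, 2 and 3). Mcl1 lies above 100 RPKM in all 9 libraries and Bax between 34.3 and 44.2 RPKM, while the mean of Bid lies below that of Bak1 in WT and above it in DH-LMP2A and kFRA.

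Total counts per library ranged from 15449026 to 21558128, and all members had at least 124 counts in every library. Counts are given below as CPM, scaled to a common library total like RPKM but not divided by length, and the detection floor of 3 counts is at most 0.194 CPM. Members were well above counting noise, and the spread between mice sets the precision. All 8 plasma cell markers (Sdc1, Prdm1, Irf4, Xbp1, Jchain, Tnfrsf17, Slamf7 and Mzb1) were detected in each library, with summed levels of 18900 to 24100 CPM in WT, 34100 to 47200 CPM in DH-LMP2A and 20400 to 32100 CPM in kFRA. Jchain made up most of these sums, with means of 17800 CPM in WT, 31000 CPM in DH-LMP2A and 21100 CPM in kFRA. Tnfrsf17, with means of 49.3, 22 and 15.3 CPM in that order, alone of the 8 had lower means than in WT. All 8 markers were also detected for each of the B cell, T cell, myeloid and erythroid lineages. Myeloid markers summed to 2730 to 4640 CPM in WT, 754 to 2190 CPM in DH-LMP2A and 1560 to 2250 CPM in kFRA. Erythroid markers summed to 49.7 to 333 CPM in WT, 2430 to 12900 CPM in DH-LMP2A and 1090 to 2580 CPM in kFRA. B cell markers summed to 342 to 658, 427 to 645 and 254 to 295 CPM, and T cell markers to 46.7 to 99.5, 40.6 to 82.8 and 33.1 to 55.8 CPM, in the same order. Markers of dividing cells summed to 605 CPM in kFRA replicate 2, against 180 and 204 CPM in kFRA replicates 1 and 3. They summed to 333 to 444 CPM in WT and 447 to 672 CPM in DH-LMP2A. In such bulk samples a change in the cells present and a change of RNA per cell cannot be told apart.

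Against WT, kFRA plasma cells had more Bid transcript and less Bcl2l11 transcript, and the other 8 members did not pass the test. Thus 2 of 10 members were past the threshold (edgeR quasi-likelihood test, Benjamini-Hochberg adjusted p under 0.05), 1 higher and 1 lower, where 17.8% of all genes tested were called in this comparison, 6.68% higher and 11.1% lower. That background itself depended on the libraries and the scaling: 2523 genes were called, against 5632 without kFRA replicate 2, 1289 without kFRA replicate 1, 1537 without kFRA replicate 3 and 1271 without WT replicate 2. Of the 2523 calls 948 were higher in kFRA, whereas 2363 of 3280 were with scaling by library size alone. The median log2 fold change of the 10 members was 0.03, beside −0.04 over all genes. In DH-LMP2A against WT, Bid alone passed, 1 of 10 members where 12.4% of all genes were called, 5.07% higher, and the members' median was −0.15 beside −0.01 over all genes. Here 720 of 1756 calls over all genes were higher in DH-LMP2A, against 2053 of 2571 with library size alone, and the calls numbered 932 without DH-LMP2A replicate 1 and 1027 without WT replicate 2. These shares of members are near those of all genes. The comparisons share the WT libraries, so their values are given side by side and are not independent of each other.

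Bid encodes a BH3-only protein that caspase 8 cleaves to carry the death receptor signal to the mitochondrion (chromosome 6, 120891930 to 120916853). Its level was 20.5, 21.5 and 23.0 CPM in WT replicates 1 to 3. It was 43.6, 38.6 and 48.4 CPM in DH-LMP2A and 58.0, 51.3 and 39.0 CPM in kFRA. Every library of DH-LMP2A and kFRA lay above every WT library. Bid was higher than in WT by 1.19 on the log2 scale in kFRA (SE 0.163, 95% interval 0.82 to 1.56, edgeR adjusted p = 0.00136), a 2.28-fold difference. In DH-LMP2A it was higher by 1.01 (SE 0.162, 95% interval 0.64 to 1.37, edgeR adjusted p = 0.00407), a 2.01-fold difference. In both comparisons with WT, Bid passed under all 20 other settings tried, among them the omission of each of the 9 libraries in turn. Summed erythroid markers were also higher and summed myeloid markers lower in all libraries of these genotypes than in WT. Summed plasma cell markers, mostly Jchain, were higher than in WT in all DH-LMP2A libraries and overlapped WT in kFRA. Tnfrsf17, of the same list, went the other way in both genotypes. The marker covariate was the mean of the standardized levels of all B cell, T cell, myeloid and erythroid markers. Erythroid and myeloid markers differed from WT in opposite directions and can offset each other in this mean. It thus adjusts for neither lineage alone. With this covariate Bid passed, at 1.11 in kFRA (edgeR adjusted p = 0.0289) and 1.01 in DH-LMP2A (edgeR adjusted p = 0.00777). The part of other spleen cells was not tested. Exons of Bcl2l13, on the opposite strand, overlap 17.7% of the Bid exon length, and the strand setting of the counting is not given in the sources used here. Bcl2l13 itself was at 38.6 CPM on average in WT, 40.2 CPM in DH-LMP2A and 32.9 CPM in kFRA, and did not pass in either comparison with WT (log2 fold change −0.23 in kFRA, edgeR adjusted p = 0.219, and 0.06 in DH-LMP2A, edgeR adjusted p = 0.839).

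Bcl2l11 encodes BIM, a BH3-only protein that binds all of the guardians and is a main brake on lymphocyte survival (chromosome 2, 128126038 to 128162547). Its level was 46.8, 33.7 and 31.1 CPM in WT, 23.6, 28.5 and 25.0 CPM in DH-LMP2A, and 18.7, 19.7 and 23.8 CPM in kFRA. Both groups lay wholly below WT, with WT replicate 1 the highest of all libraries. In kFRA Bcl2l11 fell by 0.84 on the log2 scale (SE 0.178, 95% interval −1.24 to −0.44, edgeR adjusted p = 0.0124), to 0.559 of the WT level. In DH-LMP2A the log2 fold change was −0.53 (SE 0.176, 95% interval −0.93 to −0.14), which did not pass (edgeR adjusted p = 0.0833). The direct comparison of kFRA with DH-LMP2A gave −0.31 (95% interval −0.70 to 0.09, edgeR adjusted p = 0.33), so the sizes in the 2 genotypes were not shown to differ. The call in kFRA was lost without kFRA replicate 1 (log2 fold change −0.77, edgeR adjusted p = 0.0574), with scaling by library size alone (−0.66, edgeR adjusted p = 0.0751) and with the marker covariate (−0.78, edgeR adjusted p = 0.125). Myeloid markers were lower in both groups than in WT, as given above.

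**Figure D2:**
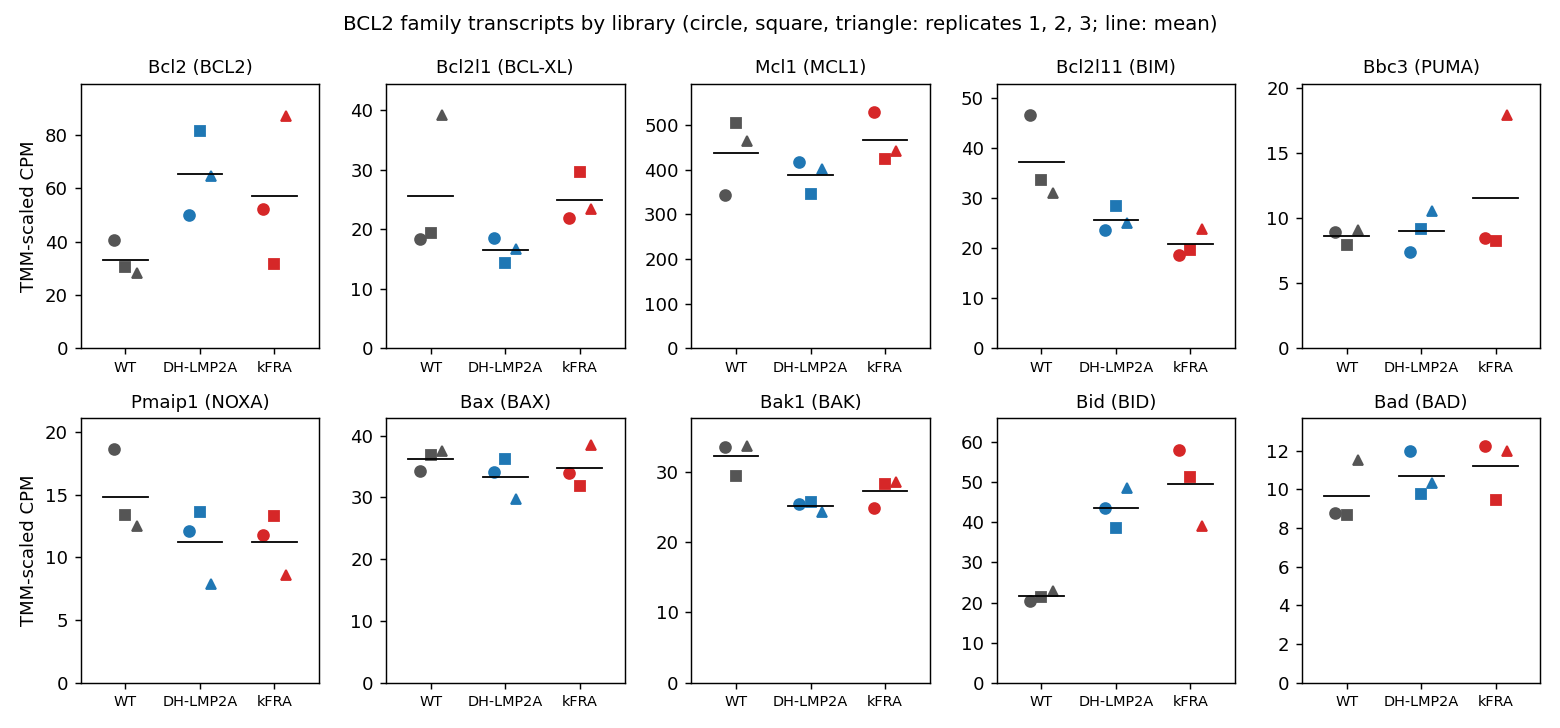
TMM-scaled CPM of each member in every library, 1 panel per gene with its own axis from 0 (circles, squares and triangles are replicates 1, 2 and 3, horizontal lines the group means). All Bid values of DH-LMP2A and kFRA (38.6 to 58.0 CPM) lie above those of WT (20.5 to 23.0 CPM), and all Bcl2l11 values of these genotypes (18.7 to 28.5 CPM) lie below those of WT (31.1 to 46.8 CPM).

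Among the guardians none passed the test. Bcl2, the founding member and a long-known protector of lymphocytes, was at 40.7, 30.5 and 28.1 CPM in WT. It was at 49.9, 81.7 and 64.5 CPM in DH-LMP2A and at 52.1, 31.5 and 87.3 CPM in kFRA. All DH-LMP2A libraries exceeded WT, but kFRA was scattered, with replicate 2 inside the WT range and replicate 3 the highest of the 9. The log2 fold change was 0.98 in DH-LMP2A against WT (SE 0.341, 95% interval 0.22 to 1.75, edgeR adjusted p = 0.0975) and 0.78 in kFRA against WT (SE 0.34, 95% interval 0.02 to 1.55, edgeR adjusted p = 0.136). Without kFRA replicate 2 the latter was 1.14 and passed (edgeR adjusted p = 0.0139), and the former, unchanged at 0.98, passed too (edgeR adjusted p = 0.0315), as it did without kFRA replicate 3 (edgeR adjusted p = 0.0376). An antisense transcript, D630008O14Rik, overlaps 6.09% of the Bcl2 exon length and had at most 53 counts in a library.

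Bcl2l1, whose product BCL-XL protects many cell types, was at 18.3, 19.4 and 39.2 CPM in WT, 18.5, 14.2 and 16.7 CPM in DH-LMP2A, and 21.8, 29.5 and 23.3 CPM in kFRA. WT replicate 3 stood apart as the highest of all libraries, and kFRA lay wholly above DH-LMP2A. The log2 fold change of kFRA against DH-LMP2A was 0.60 (95% interval −0.04 to 1.23, edgeR adjusted p = 0.247). Against WT it was −0.04 in kFRA (95% interval −0.67 to 0.59, edgeR adjusted p = 0.935) and −0.63 in DH-LMP2A (95% interval −1.27 to 0, edgeR adjusted p = 0.188). Mcl1, the short-lived guardian of plasma cells, was at 344, 504 and 464 CPM in WT, 418, 345 and 401 CPM in DH-LMP2A, and 530, 424 and 443 CPM in kFRA. The 3 kFRA libraries lay just above those of DH-LMP2A, and WT spanned nearly the whole range. Its log2 fold changes were 0.09 in kFRA against WT (95% interval −0.32 to 0.50), −0.17 in DH-LMP2A against WT (95% interval −0.58 to 0.24) and 0.26 in kFRA against DH-LMP2A (95% interval −0.15 to 0.68), with edgeR adjusted p-values of 0.744, 0.624 and 0.418.

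Of the remaining BH3-only members, none passed in any comparison. Bbc3, which encodes PUMA, a target of p53, was at 8.91, 7.91 and 9.11 CPM in WT and 7.36, 9.14 and 10.5 CPM in DH-LMP2A. In kFRA it was at 8.48, 8.23 and 17.9 CPM, so that replicate 3 alone set the higher kFRA mean. The log2 fold change of kFRA against WT was 0.42 (95% interval −0.25 to 1.09, edgeR adjusted p = 0.338), and −0.05 without kFRA replicate 3. Pmaip1, which encodes NOXA, a partner chiefly of MCL1, was at 18.6, 13.4 and 12.5 CPM in WT, 12.1, 13.6 and 7.92 CPM in DH-LMP2A, and 11.8, 13.3 and 8.59 CPM in kFRA. All groups overlapped, and the log2 fold change against WT was −0.40 in both kFRA (95% interval −0.97 to 0.17, edgeR adjusted p = 0.284) and DH-LMP2A (95% interval −0.98 to 0.17, edgeR adjusted p = 0.361). Bad, whose product is held inactive by growth factor signalling, ranged from 8.67 to 12.2 CPM over all 9 libraries, with log2 fold changes of 0.22 in kFRA against WT (95% interval −0.19 to 0.62), 0.15 in DH-LMP2A against WT (95% interval −0.26 to 0.55) and 0.07 in kFRA against DH-LMP2A (95% interval −0.33 to 0.47). Exons of Gpr137 on the opposite strand overlap 25.8% of the Bad exon length, so its level is uncertain.

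Within genotypes the pore-forming members had the smallest spread of the 10, with a biological coefficient of variation from edgeR of 13.8% for Bax and 13% for Bak1. Bax was at 34.2, 36.8 and 37.5 CPM in WT, 34.0, 36.2 and 29.8 CPM in DH-LMP2A, and 34.0, 31.8 and 38.5 CPM in kFRA. The groups overlapped throughout, and the 95% intervals of its log2 fold change were −0.34 to 0.22 in kFRA against WT, −0.40 to 0.16 in DH-LMP2A against WT and −0.22 to 0.34 in kFRA against DH-LMP2A. A transcript on the same strand, Gm45808, overlaps 22.1% of the Bax exon length. Bak1 was at 33.5, 29.3 and 33.7 CPM in WT, 25.4, 25.7 and 24.3 CPM in DH-LMP2A, and 24.8, 28.3 and 28.5 CPM in kFRA. Both groups lay below WT by a small step, of −0.36 in DH-LMP2A (SE 0.114, 95% interval −0.61 to −0.10, edgeR adjusted p = 0.0741) and −0.24 in kFRA (SE 0.114, 95% interval −0.50 to 0.01, edgeR adjusted p = 0.163), neither past the threshold. With the Wald test of DESeq2 Bak1 passed in DH-LMP2A against WT (log2 fold change −0.35, DESeq2 adjusted p = 0.0468), and with scaling by library size alone its difference there was −0.01. Exons of Ggnbp1 on the opposite strand overlap 25.5% of its length, with at most 175 counts for that gene in a library.

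**Figure D3:**
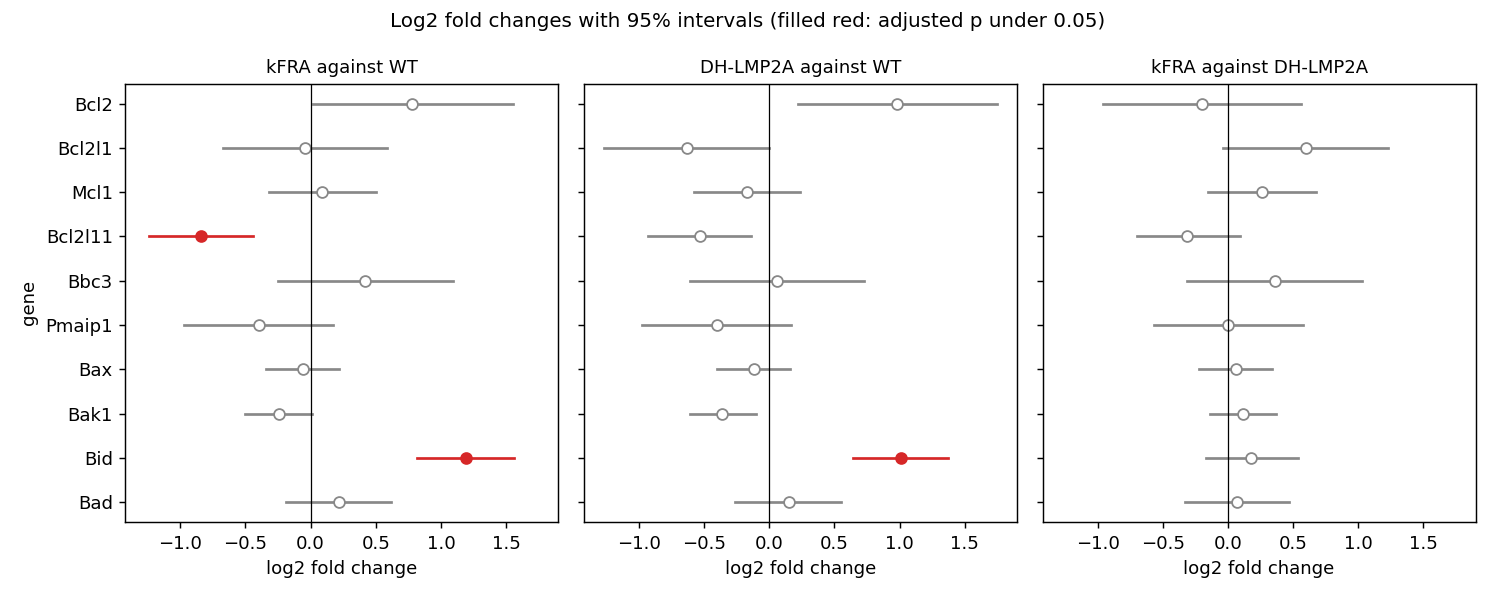
Log2 fold change of each member (points) with its 95% interval (bars) in the 3 comparisons, filled red where the edgeR adjusted p-value is under 0.05. Bid is called in both comparisons with WT (1.19 and 1.01), Bcl2l11 in kFRA against WT (−0.84), and no member in kFRA against DH-LMP2A.

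Between kFRA and DH-LMP2A no member passed the edgeR test (0 of 10), where 5.02% of all genes were called. An unadjusted p under 0.05 was found for 0 of 10, and for 3183 of all 14199 genes. The DESeq2 Wald test called 0 of 10, and 1405 over all genes. The 713 edgeR calls over all genes became 3299 without kFRA replicate 2, and 352 to 411 without kFRA replicate 1, kFRA replicate 3, DH-LMP2A replicate 1 or DH-LMP2A replicate 2. The members' median log2 fold change was 0.09, beside 0 over all genes. Only Bcl2l1 and Mcl1 had libraries that did not overlap, both higher in kFRA, that is 2 of 10 members where 25.6% of all genes did not overlap. Against WT, 3 of 10 members did not overlap in kFRA (Bid, Bcl2l11 and Bak1) and 4 of 10 in DH-LMP2A (these and Bcl2), where 34.3% and 36.6% of all genes did not overlap. The intervals of the members between kFRA and DH-LMP2A reached from −0.96 (Bcl2) to 1.23 (Bcl2l1). Fold differences near 2 in these genes are thus not excluded for Bcl2, Bcl2l1 and Bbc3, while for Bax and Bak1 the intervals ended at 0.34 and 0.37.

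Set against each other within a library, per exon length, the transcripts of Bcl2l11 and Bcl2 had a ratio of 1.31, 1.26 and 1.26 in WT. The ratio was 0.538, 0.398 and 0.442 in DH-LMP2A and 0.411, 0.715 and 0.311 in kFRA, below WT in all 6 libraries. The ratio of Bid to Bcl2l11 was 0.992, 1.44 and 1.67 in WT, 4.18, 3.06 and 4.38 in DH-LMP2A, and 7.0, 5.88 and 3.70 in kFRA. The ratio of Bcl2l11 to Mcl1, by contrast, overlapped between WT (0.0285 to 0.0579) and DH-LMP2A (0.0240 to 0.0351), and lay at 0.0151 to 0.0229 in kFRA. The ratio of Bax to Bak1 stayed between 2.83 and 3.91 in all libraries. Summed by role, the 5 BH3-only members reached 23.6 to 27.5 RPKM in WT, 29.0 to 30.1 RPKM in DH-LMP2A and 30.7 to 33.5 RPKM in kFRA, with no overlap between WT and the other genotypes. Bid carried this gap: the other 4 BH3-only members summed to 17.5 to 21.7 RPKM in WT, 16.5 to 18.1 RPKM in DH-LMP2A and 16.3 to 21.1 RPKM in kFRA, which overlapped. The 3 guardians summed to 109 to 155 RPKM in WT, 113 to 132 RPKM in DH-LMP2A and 134 to 166 RPKM in kFRA, which overlapped. These ratios and sums were not tested.

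The wider family held 15 further genes, of which 12 were tested. Bmf, which encodes a BH3-only protein tied to the cytoskeleton, was the only one past the threshold by edgeR, in both comparisons with WT. That is 1 of 12 in each, where 17.8% (kFRA) and 12.4% (DH-LMP2A) of all genes were called. The DESeq2 Wald test called 2 of the 12 in kFRA against WT and 3 in DH-LMP2A against WT, where it called 3515 and 2528 of all 14199 genes. Between kFRA and DH-LMP2A 0 of 12 passed by edgeR or DESeq2, where 5.02% of all genes did by edgeR and 1405 by DESeq2. An unadjusted p under 0.05 was found there for 4 of the 12 and for 3183 of all genes. The list's medians were −0.18 in kFRA against WT, −0.04 in DH-LMP2A against WT and −0.06 in kFRA against DH-LMP2A. Bmf was at 61.5, 42.3 and 56.6 CPM in WT, 102, 114 and 136 CPM in DH-LMP2A, and 133, 79.4 and 161 CPM in kFRA. Both groups lay above WT, by 1.22 on the log2 scale in kFRA (edgeR adjusted p = 0.0124, SE 0.258) and 1.14 in DH-LMP2A (edgeR adjusted p = 0.0199, SE 0.257). Per exon length Bmf, at 23.7 RPKM in kFRA, 22.4 RPKM in DH-LMP2A and 10.2 RPKM in WT on average, stood above Bid in each. The call was lost without WT replicate 2 in kFRA (1.08, edgeR adjusted p = 0.0551) and DH-LMP2A (0.99, edgeR adjusted p = 0.0817), in DH-LMP2A also without its replicate 3 (1.02, edgeR adjusted p = 0.0625), and in kFRA with the marker covariate (1.25, edgeR adjusted p = 0.0827). The guardian genes Bcl2a1a, Bcl2a1b and Bcl2a1d had log2 fold changes of −1.09, −0.74 and −1.37 in kFRA against WT and −1.12, −0.75 and −1.16 in DH-LMP2A against WT, none past the threshold. They are near-identical copies between which counting may split reads, and myeloid markers were lower in the same libraries; the part of these cells was not tested. Bcl2l2 (BCL-W) had a log2 fold change of 0.67 in kFRA against DH-LMP2A (edgeR adjusted p = 0.133). Bcl2l12, Bcl2l14, Bcl2l15, Bik, Bnip3 and Bnip3l did not pass by edgeR in any comparison, and Bcl2l10, Bok and Hrk were too low to test, with 0 to 12 counts in a library.

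Downstream of the pore the calls were about as frequent as over all genes in kFRA against WT. Of 15 genes of the apoptosome and caspase list, 3 passed by edgeR in that comparison (1 higher, 2 lower; 6 with the DESeq2 Wald test), where 17.8% of all genes did. There were 0 in DH-LMP2A against WT by edgeR (3 at an unadjusted p under 0.05, 1 with the DESeq2 Wald test) and 0 in kFRA against DH-LMP2A (3 at an unadjusted p under 0.05, 2 with DESeq2). By edgeR 12.4% and 5.02% of all genes were called there. Over all 14199 genes DESeq2 called 3515, 2528 and 1405 in kFRA against WT, DH-LMP2A against WT and kFRA against DH-LMP2A. An unadjusted p under 0.05 was found for 4964, 3778 and 3183 genes in that order. The list's medians were 0.08, −0.01 and 0.03 in that order, beside −0.04, −0.01 and 0 over all genes. Htra2, a mitochondrial protease, was higher in kFRA against WT (0.43, edgeR adjusted p = 0.0245, SE 0.107). Of the 9 fits that left out a library 5 called Htra2, whose exons also overlap those of Aup1 and Loxl3 over 43.7% of their length. Apaf1, the scaffold of the apoptosome, had a log2 fold change of −0.88 (edgeR adjusted p = 0.0649, SE 0.291) and Casp9, its caspase, one of −0.13 (edgeR adjusted p = 0.407, SE 0.111) in the same comparison. None of the 6 caspase inhibitor genes passed in any comparison by edgeR, with 1 at an unadjusted p under 0.05 in each and 1 called by DESeq2 in kFRA against WT.

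Upstream, the death receptor list had medians of −0.59 in kFRA and −0.13 in DH-LMP2A against WT. In each comparison with WT 1 of its 8 genes passed by edgeR, where 17.8% (kFRA) and 12.4% (DH-LMP2A) of all genes did. This was Fas, the receptor whose signal BID relays, at 13.5, 12.2 and 14.1 CPM in WT, 2.29, 2.64 and 4.39 CPM in DH-LMP2A, and 4.93, 2.24 and 2.95 CPM in kFRA. Fas was lower by 1.99 on the log2 scale in kFRA (−1.99, edgeR adjusted p = 0.00399, SE 0.329) and by 2.09 in DH-LMP2A (−2.09, edgeR adjusted p = 0.00345, SE 0.327), and passed in all 9 fits that left out a library. With the marker covariate Fas did not pass in kFRA (−2.02, edgeR adjusted p = 0.0513) and did in DH-LMP2A (−2.09, edgeR adjusted p = 0.00725). Tnfrsf1a came near the threshold, at −1.17 in kFRA (edgeR adjusted p = 0.0507) and −1.24 in DH-LMP2A (edgeR adjusted p = 0.0523). An unadjusted p under 0.05 against WT was found for 5 of the 8 genes in kFRA and 3 in DH-LMP2A, and for 4964 and 3778 of all 14199 genes. DESeq2 called 2 of the 8 in each, and 3515 and 2528 of all genes. Bid and Fas thus lay on opposite sides of WT in the same libraries, and a link between them was not tested. Among the 13 survival inputs, 2 were higher and 1 lower in kFRA against WT, 4 higher and 2 lower in DH-LMP2A against WT, and 1 lower in kFRA against DH-LMP2A, that is 3, 6 and 1 of 13 where 17.8%, 12.4% and 5.02% of all genes were called. Their medians were 0.14, 0.52 and −0.21 in that order. Il6st, the signalling chain of the interleukin-6 receptor, was higher in both, by 0.83 in kFRA (edgeR adjusted p = 0.0141, SE 0.182) and 1.05 in DH-LMP2A (edgeR adjusted p = 0.00599, SE 0.182). In kFRA this call was lost without kFRA replicate 1 (0.83, edgeR adjusted p = 0.051) and without WT replicate 2 (0.84, edgeR adjusted p = 0.0541). Pim2, a survival kinase, was higher in kFRA against WT (1.53, edgeR adjusted p = 0.0219, SE 0.373), in 5 of the 9 fits that left out a library. Tnfrsf17, which encodes BCMA, was lower in kFRA (−1.69, edgeR adjusted p = 0.00253, SE 0.256) and in DH-LMP2A (−1.16, edgeR adjusted p = 0.0159, SE 0.251), the latter in 7 of 9 such fits. Mcl1, which BCMA signalling is known to sustain, did not pass in either. Of the others in DH-LMP2A against WT, Cd28 (0.58, edgeR adjusted p = 0.0128) and Prdm1 (1.0, edgeR adjusted p = 0.0159) were higher and Stat3 lower (−0.71, edgeR adjusted p = 0.0121). These calls were lost for Cd28 without WT replicate 2 (0.54, edgeR adjusted p = 0.0666) and for Prdm1 without DH-LMP2A replicate 1 (0.97, edgeR adjusted p = 0.0647). That of Stat3 was lost without DH-LMP2A replicate 1 (−0.69, edgeR adjusted p = 0.0673), without DH-LMP2A replicate 2 (−0.68, edgeR adjusted p = 0.0567) and with library size alone (−0.35, edgeR adjusted p = 0.095). Cd28 was also lower in kFRA than in DH-LMP2A (−0.63, edgeR adjusted p = 0.0174), in 4 of 9 fits that left out a library.

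Of 10 transcription factors known to act on BH3-only genes, 1 was higher and 3 were lower in kFRA against WT, and 1 was higher and 1 lower in each of the other comparisons. These are 4, 2 and 2 of 10, in kFRA against WT, DH-LMP2A against WT and kFRA against DH-LMP2A, where 17.8%, 12.4% and 5.02% of all genes were called. The list's medians were −0.19 in kFRA against WT, 0.05 in DH-LMP2A against WT and 0.01 in kFRA against DH-LMP2A. Ddit3 encodes CHOP, which is known to raise BIM and PUMA under endoplasmic reticulum stress. Its transcript in kFRA exceeded that in DH-LMP2A (difference of 1.0 on the log2 scale, edgeR adjusted p = 0.0278, SE 0.212) and that in WT (1.11, edgeR adjusted p = 0.00787, SE 0.213). Bcl2l11 was lower in kFRA than in WT and Bbc3 did not pass, and a link to Ddit3 was not tested. Exons of Mars and Gm4189 overlap 4.73% of the Ddit3 exon length, and their part in its counts was not tested. Against DH-LMP2A Ddit3 passed in 5 of the 9 fits that left out a library. Its call was lost with the marker covariate in both comparisons (1.12, edgeR adjusted p = 0.0701 against WT, and 1.01, edgeR adjusted p = 0.243 against DH-LMP2A). Against DH-LMP2A it was also lost with the Xist covariate (0.94, edgeR adjusted p = 0.0625) and with only the 6 libraries compared (1.0, edgeR adjusted p = 0.0507). Foxo3, a known activator of Bcl2l11, was at 66.7, 76.97 and 59.8 CPM in WT, 86.2, 98.2 and 93.2 CPM in DH-LMP2A, and 51.6, 47.2 and 48.2 CPM in kFRA. It was lower in kFRA than in DH-LMP2A (−0.92, edgeR adjusted p = 0.00258, SE 0.126) in all 9 such fits, but not with the marker covariate (−0.87, edgeR adjusted p = 0.0571). Its differences from WT, −0.47 in kFRA (edgeR adjusted p = 0.0325) and 0.45 in DH-LMP2A (edgeR adjusted p = 0.0469), passed in only 2 and 1 of those fits. Foxo3 and Bcl2l11 thus lay on the same side of WT in kFRA and on opposite sides in DH-LMP2A, where Bcl2l11 did not pass. A link between them was not tested. Myc was lower in kFRA against WT (−0.94, edgeR adjusted p = 0.0195, SE 0.221), in 7 of the 9 fits. Trp73, a relative of p53, had 134 to 164 counts per library in WT, 2 to 7 in DH-LMP2A and 3 to 13 in kFRA, and was called lower in both, with exons of Trp73os overlapping 5.06% of its length. Of the 9 genes for partners and turnover of MCL1 and BIM, 8 were tested and 1 passed in kFRA against WT, where 17.8% of all genes did. This was Dynll2, a dynein light chain that binds BMF, which was higher in kFRA (0.54, edgeR adjusted p = 0.0215, SE 0.13), in 6 of the 9 fits.

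**Figure D4:**
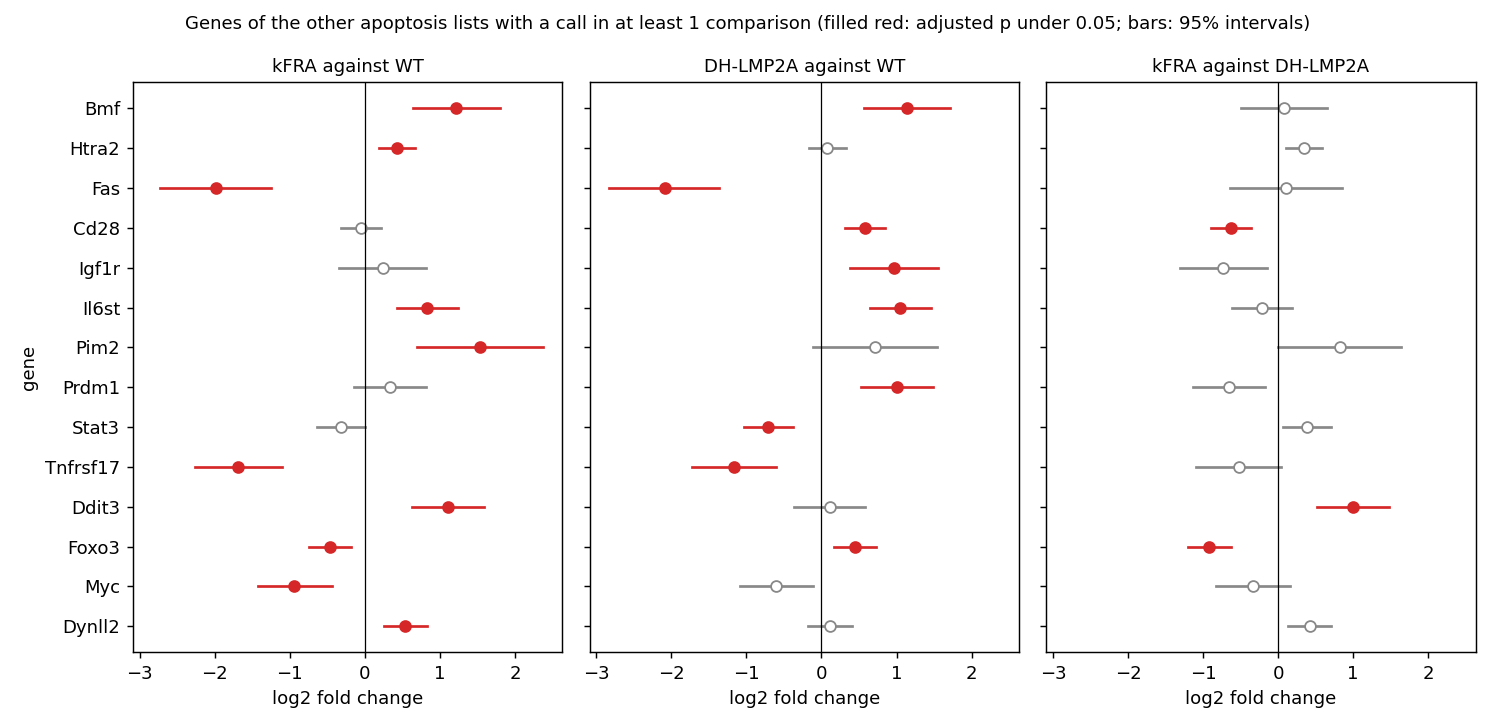
Log2 fold changes (points) with 95% intervals (bars) of 14 of the genes from the other apoptosis lists that were called in at least 1 comparison (filled red: edgeR adjusted p under 0.05); Trp73, with few counts outside WT, is left out for scale. Bmf, Il6st, Fas and Tnfrsf17 are called on the same side of WT in both genotypes, and Ddit3, Foxo3 and Cd28 are the genes called between kFRA and DH-LMP2A.

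Over all these lists together, 72 of 76 genes were tested, of which 13 passed in kFRA against WT (6 higher, 7 lower), 10 in DH-LMP2A against WT (6 higher, 4 lower) and 3 in kFRA against DH-LMP2A (1 higher, 2 lower). Over all genes 17.8%, 12.4% and 5.02% were called, so these shares are near the background. With library size alone 12 of 15 calls were higher in kFRA against WT and 11 of 14 in DH-LMP2A against WT. With the marker covariate only Tnfrsf17 and Trp73 passed in kFRA against WT, and 0 genes between kFRA and DH-LMP2A. Summed dividing cell markers of kFRA replicate 2 were the highest in kFRA but within the range of DH-LMP2A. Without this library the calls over all genes rose to the 5632 and 3299 given above. The counts of these lists in the kFRA comparisons were then 33 (against WT) and 24 (against DH-LMP2A). Without kFRA replicate 1, WT replicate 1 or WT replicate 2 the first was 5, 7 and 5, and without DH-LMP2A replicate 1, DH-LMP2A replicate 2, kFRA replicate 1 or kFRA replicate 3 the last was 1. For DH-LMP2A against WT it was 6 without DH-LMP2A replicate 1 or WT replicate 2. For the members themselves, the count in kFRA against WT was 3 without kFRA replicate 2 and 1 without kFRA replicate 1.

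The genes whose profile over the 9 libraries was most like that of a called member were found among 9632 other genes with a mean of at least 5 CPM, by the root mean square difference of centred log2 CPM. For Bid these were Chrnb1 (0.161), Ero1lb (0.163) and Ankrd55 (0.177). For Bcl2l11 they were Amdhd2 (0.115), Usp35 (0.146) and Hcls1 (0.147). The likeness is a description over 9 libraries that share their genotypes.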

How the data were processed

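The authors deposited unnormalized whole-number counts of reads for each gene, and exon lengths, in the layout of featureCounts, per the file headers. Per the labels' protocols, mRNA libraries were stranded and read from both ends. Per the submitters' processing notes, STAR 2.4.0a, featureCounts of Subread 1.5.0-p3, DESeq2 and the builds mm10 and GRCm38 were used; settings are not given in the sources used here. Coordinates are those of the table, and overlaps were taken from GENCODE M21 (GRCm38).

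All 9 count columns, from 15449026 to 21558128 counts, were used. In edgeR 4.0.16 (R 4.3.3) genes were kept by filterByExpr within groups, scaled by TMM and fitted with 1 coefficient per genotype over the 9 libraries. Each of the 3 contrasts had a 2-sided quasi-likelihood F test, with p-values adjusted by Benjamini-Hochberg over 14199 genes and a threshold of 0.05. The SE is the size of the log2 fold change divided by the square root of F, and 95% intervals use the fit's degrees of freedom. RPKM is the TMM-scaled CPM per kilobase of exon length. Log2 CPM used a prior count of 2. Floors cover counting error only. In a simulation of kFRA against DH-LMP2A with 200 changed genes among 13975, 33% of 2-fold and 94% of 4-fold changes were recovered.

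No replicates agreed within sampling noise (chi-square per degree of freedom 17.3 to 164). Each library is a different mouse. All members were named, with genes of 7 other apoptosis lists past the threshold (at most 4 per list and comparison, by p-value), 5 fixed genes and the 3 most like profiles; members and lists were chosen with earlier results of these data known. Alternatives were DESeq2 size factors, library size alone, no filter, a mean of at least 5 CPM, no immunoglobulin genes, a replicate block, covariates of other cells' markers or Xist, a fit of only the 6 libraries of a comparison, DESeq2 1.42.0 with its Wald test, an adjusted p under 0.01, and leaving out each library. Some results are not reported here.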

Additional observations from a re-analysis of the deposited data

How the results depend on the processing

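Of 600 member fold changes under the 20 alternatives, 554 kept their direction and side of the threshold, 4 lost and 8 gained a call, and 34 changed sign, none of these past the threshold. Causes were not tested unless given. No member was called in kFRA against DH-LMP2A under any alternative. The 2 members called in kFRA against WT became 1 with library size alone, the marker covariate and an adjusted p under 0.01, and 1 to 3 across the fits without a library. The 1 in DH-LMP2A against WT became 2 with library size alone, without a filter and with only the 6 libraries (Bcl2 in addition), 3 with the DESeq2 Wald test (Bcl2 and Bak1), and 1 to 2 without a library. For the other apoptosis genes, the 3 in kFRA against DH-LMP2A became 0 with the marker covariate, 6 with DESeq2, 1 under 0.01, and 1 to 24 without a library. The 13 in kFRA against WT became 2, 21 and 4, and 5 to 33, in the same order. The 10 in DH-LMP2A against WT became 3 under 0.01 and 6 to 12 without a library. With library size alone the median log2 fold change of all genes was −0.14 (kFRA against DH-LMP2A), 0.17 (kFRA against WT) and 0.33 (DH-LMP2A against WT). With TMM these medians were 0, −0.04 and −0.01.

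Signs changed as follows. With library size alone, in kFRA against DH-LMP2A Pmaip1 was at −0.12, Bax −0.09, Bak1 −0.02 and Bad −0.09, in kFRA against WT Bcl2l1 at 0.24 and Bax 0.14, and in DH-LMP2A against WT Mcl1 at 0.18 and Bax 0.23. Bcl2l1 in kFRA against WT was at 0.01 without immunoglobulin genes, 0.02 with the replicate block, 0.04 with the Xist covariate and 0 with 6 libraries. In kFRA against DH-LMP2A the marker covariate gave Pmaip1 −0.32 and Bad −0.10, and no filter gave Pmaip1 −0.02. Without a library, the ranges in kFRA against DH-LMP2A were −0.65 to 0.16 for Bcl2, −0.11 to 0.62 for Bbc3, −0.16 to 0.20 for Pmaip1 and −0.02 to 0.18 for Bax. In kFRA against WT they were −0.23 to 0.40 for Bcl2l1, −0.06 to 0.22 for Mcl1, −0.05 to 0.68 for Bbc3 and −0.13 to 0.07 for Bax. In DH-LMP2A against WT Bbc3 ranged from −0.06 to 0.18.

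The replicate numbers name different mice, and same-numbered libraries did not deviate together (r −0.21 to 0.20, 4 of 9 pairs over 0.1). A replicate block left the members' calls at 0, 2 and 1 in the order of comparisons above, and gave 4, 18 and 10 other apoptosis genes. In 7 of 18 cases a library correlated best with its own number.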
